A study of Homo sapiens with 12 samples.

Results

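The genes described here are the nuclear genes for the proteins of the mitochondrial ribosome: protein-coding genes whose symbol begins with MRPL, for the large subunit, or MRPS, for the small subunit, together with DAP3, a GTP-binding protein of the small subunit. The annotation lists 79 such genes, 49 of the large and 30 of the small subunit by symbol, and 77 of them (48 and 29) had a value among the 57815 genes of each deposited file. MRPS21 and MRPL45 were not matched by identifier and were not analysed here. Subunits are given by symbol, although MRPS30 and MRPS18A are placed in the large subunit in structures of the human particle, and MRPS36 has since been assigned to the oxoglutarate dehydrogenase complex.

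RNA was sequenced from 3 human non-small cell lung cancer (NSCLC) lines, all labelled as positive for a KEAP1 mutation, collected 48 h after they had received either control siRNA or NRF2 siRNA. A549 and H2023 are lung adenocarcinoma lines and H460 is a large cell carcinoma line. KEAP1 marks the transcription factor NRF2, the product of NFE2L2, for degradation, and its loss leaves NRF2 persistently active. Each of the 6 groups held 2 libraries, and all 12 libraries came from such KEAP1-mutant lines, controls included. The study calls the libraries of a group biological duplicates. Within every NRF2 siRNA group the libraries differed in reagent, siRNA #28 in one and siRNA #30 in the other, so the spread of such a group includes the difference between siRNAs. A549 was grown in high-glucose medium and its RNA was depleted of ribosomal RNA, whereas H2023 and H460 were grown in low-glucose medium and polyA RNA was selected, so medium, protocol and line cannot be told apart between A549 and the others. In bulk RNA, fewer cells of a kind and less RNA per cell cannot be told apart.

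Mitochondrial ribosomes translate the few messenger RNAs that mitochondrial DNA encodes, all of them for subunits of the respiratory chain and ATP synthase. Their RNAs are made inside the organelle, whereas every ribosomal protein is encoded in the nucleus, made on cytosolic ribosomes and imported. Their transcription in the nucleus is one point of control, in which the nuclear respiratory factors NRF1 and GABPA, the factor YY1 and MYC are known to take part. NRF1 is a gene distinct from NFE2L2 despite the similar name.

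Expression is given as FPKM, a fragment count scaled to transcript length and library size, which allows levels to be compared between genes. NFE2L2 was 30.9 to 38.2 FPKM in A549 controls and 5.31 to 7.84 FPKM with NRF2 siRNA, and it fell in each line (limma adjusted p = 0.0178 in A549, 0.00529 in H2023 and 0.0111 in H460). NQO1, a classical NRF2 target, also fell in each line. Depth in reads was not available. An indirect estimate of relative depth, from ratios of low FPKM values between libraries, ran from 92.5% to 107% of the first control of the same line. The keratins KRT8 and KRT18 were at 298 FPKM or more in every library. KRT8 was 553 and 673 FPKM in H460 controls against 990 and 1723 FPKM with NRF2 siRNA, and 1474 and 1303 FPKM against 3101 and 2919 FPKM in H2023. These differences did not pass the single-line tests. Averaged over the lines, KRT8 (log2 fold change 0.78, limma adjusted p = 0.00638), KRT18 (0.60, adjusted p = 0.00556) and KRT7 (0.51, adjusted p = 0.0134) rose. In A549 the KRT7 value was -0.15, and KRT7 was only 10.3 to 26.8 FPKM in H460. CDH1, the epithelial cadherin, rose in H2023 from 12.6 and 8.05 FPKM to 64.99 and 58.3 FPKM (limma adjusted p = 0.028). EPCAM and CDH1 were at or under 1.19 FPKM in all H460 libraries, and the lung markers NKX2-1, NAPSA, SFTPB and SFTPC did not exceed 1.25 FPKM anywhere. The leukocyte genes PTPRC and CD3E did not exceed 0.471 FPKM and the endothelial gene CDH5 did not exceed 0.132 FPKM, while CD68, a lysosomal protein also made outside macrophages, was 14.04 to 57.7 FPKM. With NRF2 siRNA, CD68 went from 14.0 and 15.6 FPKM to 26.6 and 30.7 FPKM in A549, and from 36.6 and 39.2 FPKM to 16.5 and 29.2 FPKM in H460. Neither passed in its line, but the effects differed by -1.66 on the log2 scale, H460 minus A549 (limma adjusted p = 0.0352). The mesenchymal gene COL1A1 rose in H460 from 1.81 and 2.06 FPKM to 5.94 and 5.81 FPKM (limma adjusted p = 0.0329), and it and PDGFRB reached at most 7.61 and 3.97 FPKM, both with NRF2 siRNA. The part of these markers in the results was not tested. Mitochondrially encoded transcripts made up 0.892% to 1.56% of summed FPKM in A549, 12% to 22.8% in H2023, and in H460 8.56% and 13.1% of the sum in controls against 20.8% and 26.0% with NRF2 siRNA.

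The 77 genes were expressed in every library, from 2.45 FPKM at the least to 335 FPKM at the most, and all passed the filter in each line. Averaged over the 6 control libraries, MRPS34, a small-subunit protein found in mitochondria and not in bacteria, stood at 171 FPKM, MRPS24 at 166 FPKM and DAP3 at 166 FPKM, the highest of the members by this mean. The order differed between lines. MRPL23 led in A549 controls at 179 FPKM, MRPS24 in H2023 controls at 164 FPKM and DAP3 in H460 controls at 293 FPKM, whereas DAP3 averaged 63.6 FPKM in A549. MRPS24 shares its strand with the read-through gene URGCP-MRPS24, and its value is uncertain for that reason. The lowest by that mean were MRPL30 at 7.72 FPKM, MRPS31 at 10.1 FPKM and MRPS36 at 12.8 FPKM. MRPL30 was the lowest in A549 and H2023 controls, and MRPS17 in H460 controls at 5.26 FPKM. Summed over the members, the A549 controls held 4687 and 4298 FPKM, the H2023 controls 4250 and 3691 FPKM, and the H460 controls 5295 and 5174 FPKM. With NRF2 siRNA #28 and #30 the sums were 4612 and 4151 FPKM in A549, 3846 and 3479 FPKM in H2023, and 3717 and 3312 FPKM in H460. The H460 groups were far apart on this measure, while in A549 and H2023 the siRNA #28 library lay between the controls. The A549 overlap depends on the scaling, because the deposited values of a library do not add up to a fixed total, and all genes of A549 summed to 999482 and 925845 FPKM in controls against 1159270 and 925611 FPKM with siRNA #28 and #30. As a share of these sums the members held 0.469% and 0.464% in A549 controls against 0.398% and 0.448%, so that both siRNA libraries lay below both controls. In H2023 the shares were 0.653% and 0.558% against 0.602% and 0.524%, and in H460 0.711% and 0.731% against 0.537% and 0.398%, with the same order as the sums relative to the controls.

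The comparison of NRF2 siRNA with control siRNA asked which transcripts depend on persistently active NRF2. Of the 77 members, none passed the test in A549 or H2023, and 15 fell and none rose in H460. The test was limma on log2(FPKM + 1) with Benjamini-Hochberg adjustment over all genes tested and a threshold of 0.05, and a fold change on this scale understates that of low genes. The members had a median log2 fold change of -0.03 (A549), -0.21 (H2023) and -0.57 (H460), beside medians of 0.02, 0.02 and -0.01 over all genes tested. The A549 median of the members was -0.14 when scaled to equal sums without mitochondrially encoded transcripts and -0.13 with equal sums that kept them, and it turned positive without control 0 (0.025) or without the siRNA #30 library (0.028). The H2023 median was -0.12 when scaled to equal sums without mitochondrially encoded transcripts and -0.30 to -0.09 when each library was left out, with -0.09 both without control 0 and without the siRNA #30 library. All genes gave 0.554% lower and 0.122% higher calls in A549, 0.583% and 0.327% in H2023, and 6.86% and 7.12% in H460. At such low shares, the lack of called members in A549 and H2023 was near the background. The counts of members at an unadjusted p under 0.05 were 1 lower and 0 higher in A549, 3 lower and 2 higher in H2023, and 32 lower and 0 higher in H460. By that criterion all genes gave 4.99% lower and 8.27% higher in A549, 6.68% and 10.2% in H2023, and 16.7% and 17.0% in H460, so the members' counts in A549 and H2023 were not above the background. The A549 member was MRPL9, and those in H2023 were MRPS15, MRPS22 and MRPS35, which were lower, and MRPL10 and MRPL32, which were higher; these 6 were named after their values were seen.

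**Figure D1:**
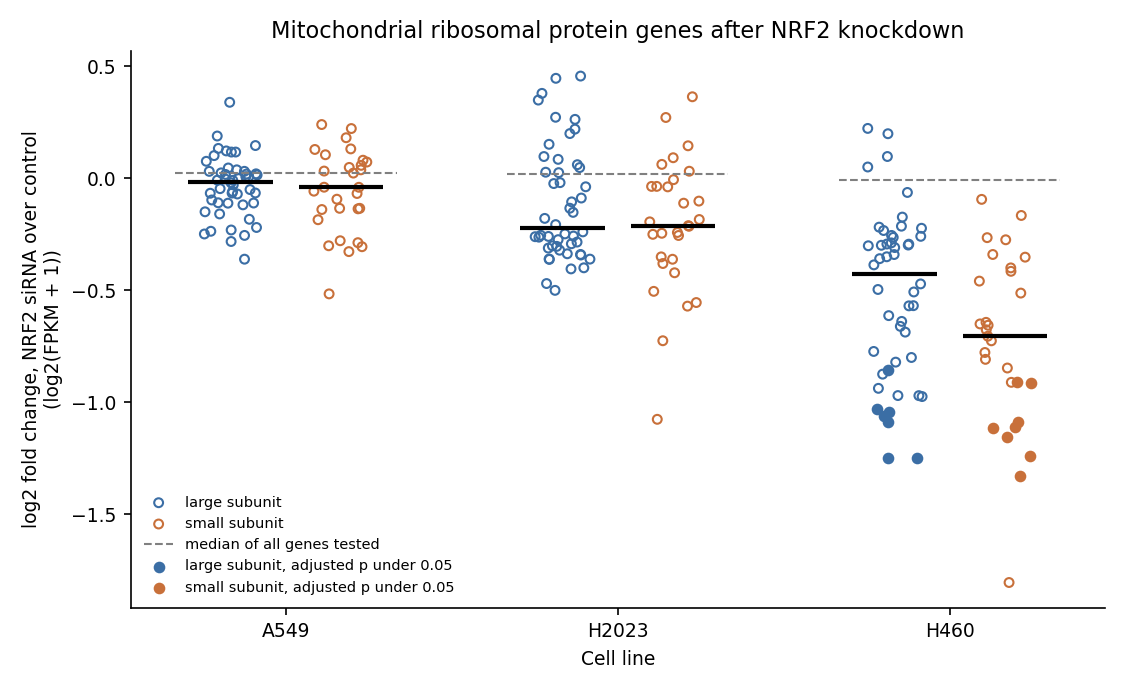
Log2 fold change of each of the 77 members (1 point each) after NRF2 knockdown, by cell line on the x axis and by subunit, on the log2(FPKM + 1) scale. Black bars are medians of the members and dashed lines medians of all genes tested. Points lie around 0 in A549 and mostly below 0 in H460, where the 15 filled points passed the threshold.

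In H460 the 15 of 77 members that fell made up 19.5%, against 6.86% of all genes tested and 9.81% of those that averaged 10 FPKM or more in that line. The count rests on the model, since no member passed when the filter on low values was dropped, 23 did with the replicate number as a block and 35 did in 1 fit of all 12 libraries. They comprised 7 large-subunit genes (MRPL2, MRPL3, MRPL4, MRPL9, MRPL11, MRPL12 and MRPL15) and 8 small-subunit genes (MRPS2, MRPS12, MRPS15, MRPS18B, MRPS22, MRPS26, MRPS30 and MRPS35). The fold change was negative for 73 of 77 members. The exceptions, MRPL30, MRPL33, MRPL40 and MRPL53, had log2 fold changes of 0.05 to 0.22 and did not pass the test. The median was -0.43 for the large and -0.70 for the small subunit, as a description with no test between them. Both NRF2 siRNA libraries lay below both controls for 65 members (84.4%), against 31.6% of all genes tested.

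FPKM is scaled to library size, and the share of summed FPKM taken by mitochondrially encoded transcripts was higher with NRF2 siRNA in H460, as given above. Scaled to an equal sum of all other transcripts within the line, the median of all genes moved from -0.01 to 0.12 and that of the members from -0.57 to -0.42, so that the members lay 0.56 below all genes with the deposited scaling and 0.54 below without those transcripts. Scaling by the median ratio over genes of 10 FPKM or more gave 0.10 and -0.44, a gap of 0.55. Equal sums with those transcripts kept, a scaling added after the data were seen, gave -0.06 and -0.63, a gap of 0.57. The number of members that fell was 8 in the first case, 11 in the second and 9 in the third, with none higher in any. Over all genes the split was 922 lower and 957 higher with the deposited scaling, 597 and 1202 without those transcripts, 714 and 1215 by median ratio, and 742 and 692 with equal sums. Leaving out either H460 control library left no member past the threshold, and leaving out the siRNA #28 library gave 28. In these fits the lone library of a group was assumed to vary like the other group.

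MRPS2 (ENSG00000122140.6, chromosome 9, 138391830 to 138396519, plus strand, GRCh37), a protein on the solvent side of the small subunit with a bacterial counterpart, had the largest fall among the members that passed in H460. Its level there was 226 and 205 FPKM in controls, 101 FPKM with siRNA #28 and 71.2 FPKM with siRNA #30. The groups did not overlap, and the level after NRF2 knockdown was 40.1% of control. The log2 fold change was -1.33 ± 0.25 (SE, n = 2 libraries each, limma adjusted p = 0.0272). In A549, MRPS2 was 34.6 and 36.4 FPKM in controls against 30.7 and 33.9 FPKM, and in H2023 it was 64.3 and 60.2 FPKM against 52.6 and 51.5 FPKM. Those groups did not overlap either, but the log2 fold changes of -0.13 and -0.25 did not pass the test.

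MRPL4 (ENSG00000105364.9, chromosome 19, 10362577 to 10370731, plus strand, GRCh37), which lines the exit tunnel of the large subunit, was 98.5 and 105 FPKM in H460 controls. It was 46.2 FPKM with siRNA #28 and 38.6 FPKM with siRNA #30, a log2 fold change of -1.25 ± 0.22 (SE, limma adjusted p = 0.023). The siRNA libraries were near each other and well below the controls. In A549 the control levels were 50.3 and 45.0 FPKM against 42.6 and 39.0 FPKM, and in H2023 46.2 and 45.7 FPKM against 41.9 and 35.4 FPKM. MRPL4 was thus below the controls in all 6 NRF2 siRNA libraries, with a fall past the threshold in H460 alone among the single lines.

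MRPL15, a large-subunit protein with a bacterial counterpart, was 70.1 and 71.3 FPKM in H460 controls against 34.4 and 24.8 FPKM with siRNA #28 and #30. Its log2 fold change was -1.25 ± 0.24 (SE, limma adjusted p = 0.0288). In A549 the groups overlapped, with 61.2 and 59.2 FPKM in controls and 64.98 and 56.2 FPKM after knockdown. In H2023 they overlapped as well, since the siRNA #28 library at 94.7 FPKM lay between the controls at 116 and 80.3 FPKM.

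MRPS30 (ENSG00000112996.5, chromosome 5, 44809049 to 44820530, plus strand, GRCh37) was 60.6 and 43.5 FPKM in H460 controls against 20.7 and 21.8 FPKM with siRNA #28 and #30. The log2 fold change was -1.24 ± 0.25 (SE, limma adjusted p = 0.0303). The siRNA libraries agreed closely while the controls did not. In H2023 all 4 libraries of MRPS30 lay between 22.9 and 24.2 FPKM, a log2 fold change of -0.01 ± 0.16 (SE).

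MRPS22 (ENSG00000175110.7, chromosome 3, 138724648 to 139079339, plus strand, GRCh37), a small-subunit protein without a bacterial counterpart whose mutation causes mitochondrial disease, was 68.7 and 59.2 FPKM in H460 controls. After knockdown it was 25.8 and 30.7 FPKM, a log2 fold change of -1.15 ± 0.22 (SE, limma adjusted p = 0.0291). In H2023 it was 59.7 and 47.1 FPKM against 31.1 and 41.1 FPKM, with no overlap and a log2 fold change of -0.55 ± 0.22 (SE, limma adjusted p = 0.29). In A549 the siRNA #30 library at 36.2 FPKM lay between the controls at 43.5 and 35.7 FPKM.

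**Figure D2:**
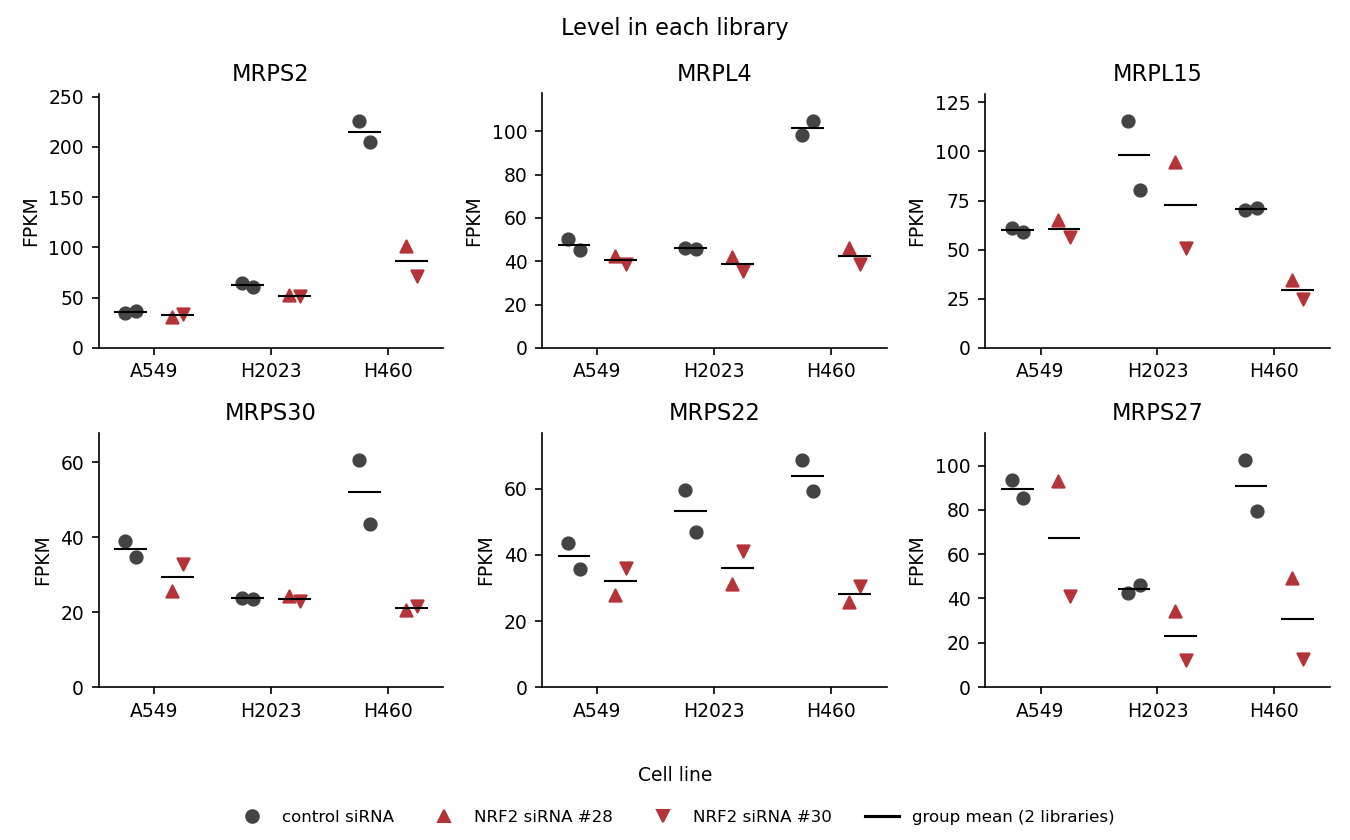
FPKM (y axis) of 6 members in each of the 12 libraries, by cell line (x axis). Grey points are control siRNA, red triangles NRF2 siRNA (#28 upward, #30 downward) and bars the means of 2 libraries. In H460 the red points of all 6 genes lie below the grey ones, and MRPS27 is lowest with siRNA #30 in every line.

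Further members of known function fell in H460, and others did not. MRPL12, a stalk protein that recruits translation factors, overlaps another annotated protein-coding gene on its strand. It was 116 and 129 FPKM in controls against 67.4 and 51.2 FPKM (log2 fold change -1.04 ± 0.23, SE, limma adjusted p = 0.0369). MRPL11, at the base of that stalk, was 80.7 and 89.0 FPKM against 39.8 and 42.4 FPKM (log2 fold change -1.03 ± 0.21, SE, limma adjusted p = 0.0307). The groups of both genes did not overlap. MRPL10, which joins them at the stalk and was named after its values were seen, was 81.5 and 81.8 FPKM against 73.9 and 82.7 FPKM and did not pass (-0.06 ± 0.21, SE). MRPL3, which reaches towards the peptidyl transferase centre, was 131 and 125 FPKM against 71.7 and 68.6 FPKM, and its log2 fold change was -0.86 ± 0.20 (SE, limma adjusted p = 0.042). MRPS12, at the decoding centre, was 44.6 and 58.8 FPKM against 27.5 and 20.2 FPKM, with a log2 fold change of -1.09 ± 0.26 (SE, limma adjusted p = 0.0442). Both passed near the threshold, and both calls were lost under each of the 3 other scalings, with no filter and with no variance trend. The calls of MRPL11 and MRPL12 were lost with no filter and when scaled to equal sums without mitochondrially encoded transcripts. That of MRPL12 was also lost with equal sums that kept them.

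Several members did not pass in any line. DAP3 was 335 and 252 FPKM in H460 controls against 265 and 253 FPKM, with overlapping groups and a log2 fold change of -0.17 ± 0.24 (SE). In H2023 DAP3 was 137 and 145 FPKM against 162 and 178 FPKM, and in A549 68.1 and 59.0 FPKM against 76.6 and 73.6 FPKM, higher in both siRNA libraries than in both controls, with log2 fold changes of 0.27 and 0.24 that did not pass the test. MRPS34 had a log2 fold change of -0.81 ± 0.32 (SE) in H460, and MRPS24 one of -0.46 ± 0.21 (SE). MRPS16 and MRPL44, the latter with a ribonuclease III fold, had log2 fold changes of -0.51 each in H460, and MRPL41 one of -0.23. For the 3 members lowest by the mean over all controls, the log2 fold change in H460 was -0.64 for MRPS31, -0.34 for MRPS36 and 0.20 for MRPL30.

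The fold changes of the members were compared between lines, each of which has controls of its own. Across the 77 genes, which share libraries and are not replicates, Pearson's r was 0.53 between A549 and H2023, 0.69 between A549 and H460, and 0.50 between H2023 and H460, given as a description. The fold change was negative in all 3 lines for 38 members and positive in all 3 for 3. A total of 10 members (MRPL4, MRPL9, MRPL11, MRPL22, MRPL36, MRPL46, MRPL47, MRPS2, MRPS15 and MRPS35) had both NRF2 siRNA libraries below both controls in every line, 13% of the 77 beside 7.20% of the genes tested in every line. Within single lines this held for 17 members in A549 (22.1%) and 24 in H2023 (31.2%), beside 20.5% and 22.0% of all genes tested, so the share in A549 was near the background.

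Averaged over the 3 lines in 1 fit of all libraries, 20 of 77 members (26.0%) fell and none rose, and the median log2 fold change was -0.25. The background was 14.5% lower and 15.2% higher calls among all genes tested, and 20.0% lower among those that averaged 10 FPKM or more in every line. The largest falls among the members that passed were those of MRPS27 (log2 fold change -1.13 ± 0.34, SE, limma adjusted p = 0.0321), MRPS15 (-0.71 ± 0.11, adjusted p = 0.0017), MRPS22 (-0.67 ± 0.12, adjusted p = 0.00318), MRPL9 (-0.59 ± 0.09, adjusted p = 0.00148) and MRPS2 (-0.57 ± 0.10, adjusted p = 0.00277). MRPS15, a small-subunit protein with a bacterial counterpart, was below the controls in both siRNA libraries of every line, with 67.6 and 63.7 FPKM against 50.8 and 56.6 FPKM in A549, 105 and 79.6 FPKM against 48.0 and 62.7 FPKM in H2023, and 75.0 and 74.6 FPKM against 29.7 and 38.8 FPKM in H460. MRPL9, a large-subunit protein with a bacterial counterpart, was 61.2 and 57.1 FPKM against 45.4 and 46.2 FPKM in A549, 55.0 and 53.8 FPKM against 37.6 and 50 FPKM in H2023, and 116 and 113 FPKM against 51.0 and 56.0 FPKM in H460. The call for MRPS27 held in 4 of the 12 fits that each left out 1 library, whereas those of the other 4 genes held in all 12. A contrast for the average of the A549 and H2023 effects was added after the data were seen. It was taken from the same fit of all libraries, so its SE and p-values include the spread within H460. In it, 0 members were past the threshold in limma, beside 2.20% lower calls among all genes, and the median was -0.13. At an unadjusted p under 0.05, 6 members were lower and 2 higher, beside 8.24% lower and 11.9% higher among all genes, so neither count was above the background. In that contrast the log2 fold change was -0.80 ± 0.42 for MRPS27, -0.51 ± 0.14 for MRPS15, -0.43 ± 0.15 for MRPS22, -0.34 ± 0.11 for MRPL9 and -0.19 ± 0.12 for MRPS2 (SE).

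The difference in effect between lines was tested directly. By an F test over the 3 lines, 2 of 77 members passed, MRPS2 and MRPL4 (limma adjusted p = 0.0495 for each), a share of 2.60% that is near the 2.51% of all genes tested. Neither passed under any of the 3 other scalings, a pseudocount of 0.1, no variance trend or the replicate block, and both missed the threshold when any 1 library was left out other than a siRNA #28 library of H2023 or H460. Set against A549, the effect in H460 was lower by a log2 difference of -1.20 ± 0.25 (SE) for MRPS2 and -1.03 ± 0.22 (SE) for MRPL4, the members that passed in that contrast beside 1.71% of all genes lower. Set against H2023, it was lower for 4 members, beside 2.02% of all genes, with log2 differences of -1.33 ± 0.27 for MRPL2, -1.23 ± 0.27 for MRPS30, -1.07 ± 0.25 for MRPS2 and -1.0 ± 0.22 for MRPL4 (SE). MRPL2, which lies beside the peptidyl transferase centre and overlaps another annotated gene on its strand, was 78.1 and 61.7 FPKM in H460 controls against 32.0 and 33.6 FPKM, whereas in H2023 it was 46.9 and 46.2 FPKM against 54.1 and 58.7 FPKM. No member passed between H2023 and A549, with 0 at an unadjusted p under 0.05 in limma.

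The siRNAs against NRF2 were compared with each other across the 6 libraries that had received either of them, and cell line entered the fit as a covariate. MRPS27 was the only member that passed, higher with siRNA #28 than with #30 by a log2 difference of 1.48 ± 0.17 (SE, n = 3 libraries each, limma adjusted p = 0.046). Over all genes tested, 0.112% were lower and 0.415% higher with siRNA #28. MRPS27 (ENSG00000113048.12, chromosome 5, 71510780 to 71617544, minus strand, GRCh37), a small-subunit protein of the pentatricopeptide repeat family, was 102.5 and 79.3 FPKM in H460 controls, 49.0 FPKM with siRNA #28 and 12.6 FPKM with siRNA #30. In H2023 the order was the same, with 42.6 and 46.3 FPKM in controls, 34.2 FPKM with siRNA #28 and 12.2 FPKM with siRNA #30. In A549 the siRNA #28 library at 93.2 FPKM lay within the controls at 93.5 and 85.2 FPKM, while the siRNA #30 library was at 41.3 FPKM. The call for the difference was lost without either NRF2 siRNA library of H2023 or of H460 (limma adjusted p = 0.0667 to 0.125), although the log2 difference stayed at 1.29 or above. A pseudocount of 0.1, no filter or no variance trend also ended the call. The fall of MRPS27 in the average over lines came with a difference between reagents in each line.

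MRPL58, a peptidyl-tRNA hydrolase that rescues stalled ribosomes and is built into the large subunit, had the next largest difference between siRNAs, 0.91 ± 0.16 on the log2 scale (SE, limma adjusted p = 0.0579). It was 70.4 and 55.6 FPKM in H460 controls, 48.9 FPKM with siRNA #28 and 20.1 FPKM with siRNA #30. In A549 it was 61.3 and 60.5 FPKM in controls, 62.1 FPKM with siRNA #28 and 40.1 FPKM with siRNA #30. Over the members, the median log2 difference to the control mean was 0.03 with siRNA #28 and -0.12 with siRNA #30 in A549, -0.09 and -0.27 in H2023, and -0.43 and -0.61 in H460. The median thus lay lower with siRNA #30 in each line as deposited, but in A549 this turned when the libraries of a line were set to equal sums (-0.24 with siRNA #28 and -0.07 with #30) or to equal sums without mitochondrially encoded transcripts (-0.24 and -0.06). In H2023 and H460 it held under those scalings and by median ratio. Over the 3 lines the median log2 difference between siRNAs was 0.13 as deposited and with equal sums, 0.07 without mitochondrially encoded transcripts and 0.10 by median ratio. The part of the reagent in single falls was not tested beyond this comparison.

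**Figure D3:**
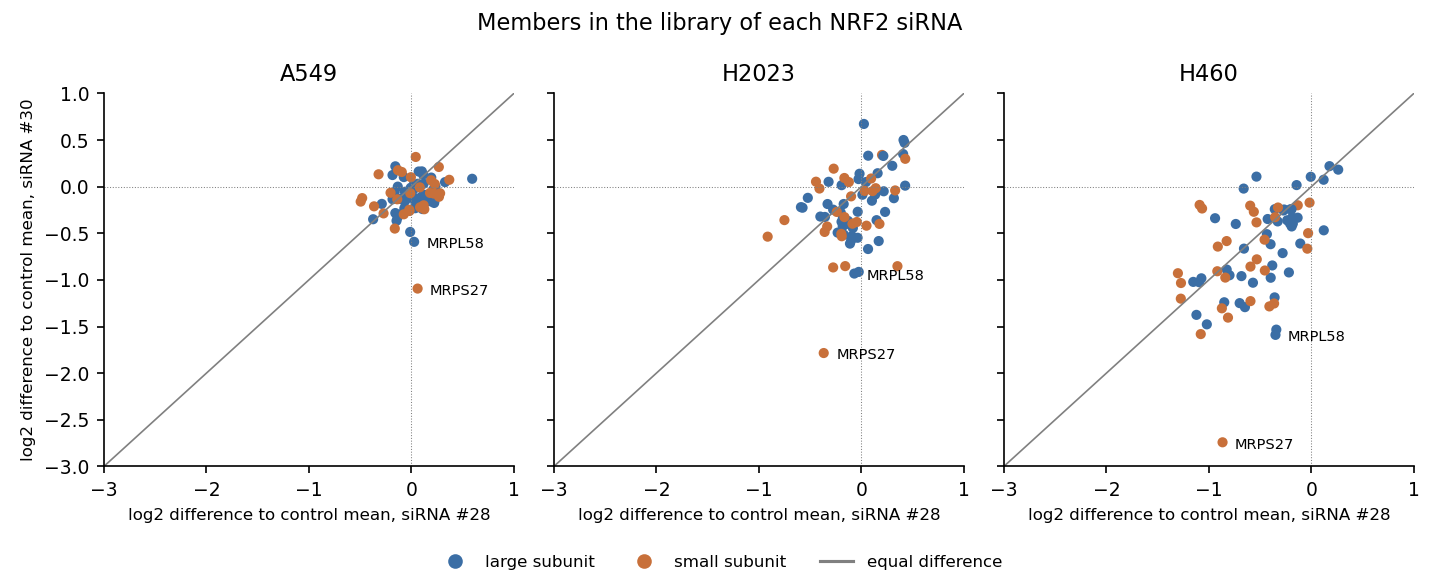
Log2(FPKM + 1) of each member minus its control mean, in the siRNA #28 library (x axis) and the siRNA #30 library (y axis) of each line. Both axes share the control mean. Points on the grey line differ equally, MRPS27 lies far below it in all 3 lines (1.48 on average), and in H460 most points lie below 0 on both axes.

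The other genes that a mitochondrial ribosome needs were examined by lists. In H460, 5 of 18 genes of mitochondrial transcription and RNA handling fell and none rose (median log2 fold change -0.83), as did 1 of 13 translation factors (-0.75), 2 of 26 assembly and ribosomal RNA modification factors (-0.36) and none of 20 mitochondrial tRNA synthetases (-0.49). These counts are 27.8%, 7.69%, 7.69% and 0%, beside 6.86% lower calls among all genes and 9.81% at 10 FPKM or more, so those of the translation and assembly factors were near the background. Of 4 further ribosomal proteins with other symbols, none passed (-0.31). C1QBP, a matrix protein needed for mitochondrial translation, was 736 and 633 FPKM in H460 controls against 278 and 218 FPKM (log2 fold change -1.47 ± 0.25, SE, limma adjusted p = 0.0229). GFM1, the elongation factor that moves the ribosome along, was 49.6 and 37.01 FPKM against 20.2 and 22.8 FPKM (limma adjusted p = 0.0487). In A549 and H2023 no gene of any of these lists passed.

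Averaged over the lines, 12 of the 18 genes of transcription and RNA handling fell and 1, the transcription termination factor MTERF1, rose (log2 fold change 0.33 ± 0.10, SE, limma adjusted p = 0.0362). The largest falls were those of TFB2M, which melts the promoter with the mitochondrial polymerase (-0.77 ± 0.12), TFAM, which packages mitochondrial DNA and starts its transcription (-0.76 ± 0.17), the exoribonuclease PNPT1 (-0.67 ± 0.15) and LRPPRC, which stabilises mitochondrial messenger RNAs (-0.55 ± 0.10), given as log2 fold change and SE. Among translation factors 5 of 13 fell, led by GFM1 (-0.46), the initiation factor MTIF2 (-0.42), TACO1 (-0.41) and the recycling factor MRRF (-0.40). Of the assembly factors 3 of 26 fell, C1QBP (-0.77), the ribosomal RNA methyltransferase MRM2 (-0.35) and RPUSD3 (-0.33), and of the synthetases 4 of 20 fell, NARS2, HARS2, LARS2 and EARS2 (-0.41 to -0.28). The shares that fell were 66.7% for transcription and RNA handling and 38.5% for translation factors, against the background of 14.5% of all genes and 20.0% at 10 FPKM or more. Those of the assembly factors (11.5%) and the synthetases (20.0%) were not above the latter.

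Of 10 regulators of mitochondrial biogenesis, 3 fell in H460 (30%, beside 6.86% of all genes) and 4 fell in the average over lines (40.0%, beside 14.5%). TFAM is in this list and also in that of transcription and RNA handling, so it is counted in both. MYC, a transcription factor known to drive ribosome and mitochondrial biogenesis, was 495 and 299 FPKM in H460 controls against 35.2 and 70.1 FPKM with NRF2 siRNA (log2 fold change -2.93 ± 0.40, SE, limma adjusted p = 0.0168). In A549 MYC was 81.5 and 61.5 FPKM against 50.5 and 49.2 FPKM, and in H2023 67.7 and 72.9 FPKM against 53.7 and 43.3 FPKM, so H460 controls stood far above the other lines, where the fold changes of about equal size (-0.50 and -0.53) did not pass. TFAM fell in H460 (-1.45 ± 0.34, limma adjusted p = 0.0413), as did PPRC1 (-1.03 ± 0.22, limma adjusted p = 0.0322), a coactivator of the nuclear respiratory factors. NRF1 fell in the average over lines (-0.57 ± 0.10, limma adjusted p = 0.00326) and did not pass in H460 (-0.92 ± 0.25, adjusted p = 0.0562). GABPA (-0.52 ± 0.21) and PPARGC1A (-0.23 ± 0.34) did not pass on average. The part of MYC in the fall of the members was not tested.

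The mitochondrially encoded messenger RNAs, which these ribosomes translate, were examined beside them. All 13 mitochondrially encoded messenger RNAs had positive log2 fold changes in H460 (median 1.17, range 0.89 to 1.60) and H2023 (median 0.38), but none passed in a single line. In A549 the median was -0.07. Averaged over lines, MT-ND5 rose (log2 fold change 0.73 ± 0.20, SE, limma adjusted p = 0.0211), as did MT-CO1 (0.60 ± 0.19, limma adjusted p = 0.0385), and these 2 of 13 (15.4%) were near the 15.2% of all genes that rose. MT-CO1 was 5437 and 7485 FPKM in H460 controls against 13520 and 20061 FPKM after knockdown. The ribosomal RNAs MT-RNR1 and MT-RNR2 are listed at 0 in every library, so the RNA part of the particle was not seen. Beside them, 0 of 79 cytosolic ribosomal protein genes passed in H460 in limma, with 0 also at an unadjusted p under 0.05 in either direction and a median of -0.11 that turned to 0.05 and 0.03 under the scalings without mitochondrially encoded transcripts and by median ratio and was -0.17 with equal sums. The median of the nuclear respiratory chain genes was -0.07, with 1 lower and 2 higher of 78.

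**Figure D4:**
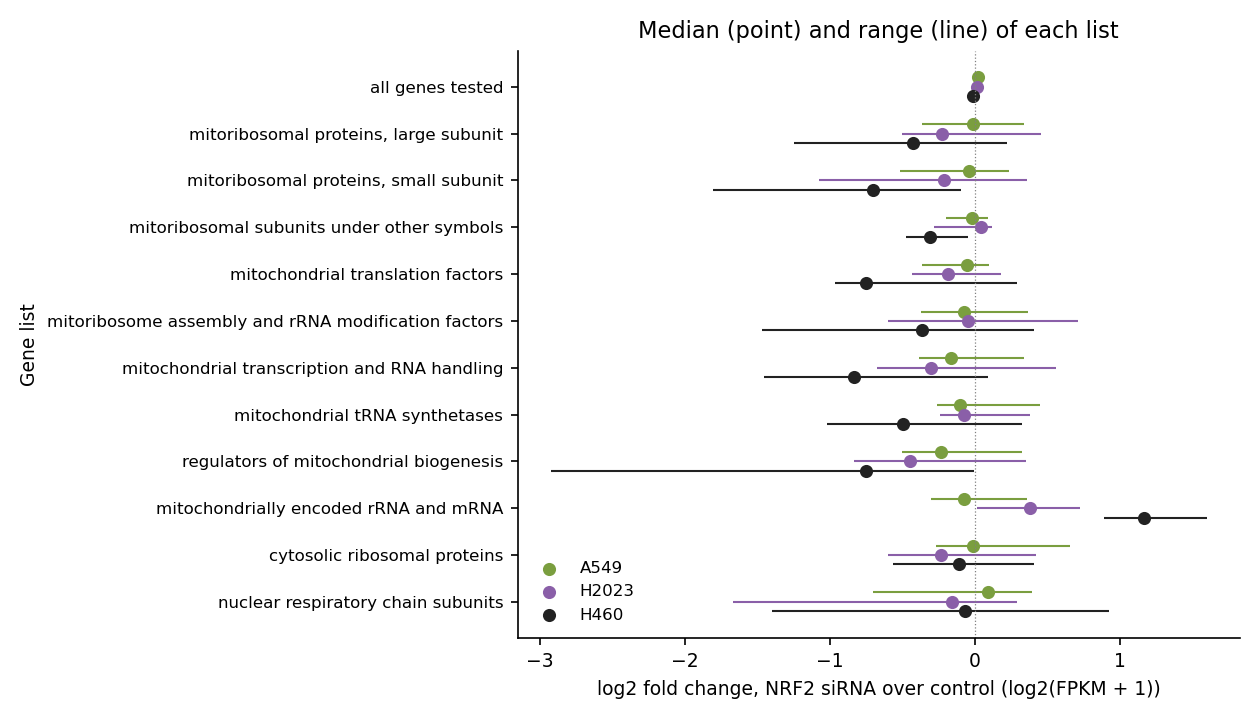
Median (points) and range (lines) of log2 fold changes after NRF2 knockdown on the x axis for the lists on the y axis, by cell line. Only the median is shown for all genes tested. In H460 the medians of both subunits, translation factors and transcription genes lie left of 0, although the ranges reach past 0 except for the small subunit, and mitochondrially encoded transcripts lie right of 0 (median 1.17).

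The promoters of the members were read from RefSeq (GRCh38.p14), as windows of 300 bases from 250 before to 50 after the annotated start. Of the 79 genes, 70 had 87 windows, some with more than 1 start. Motifs were searched on both strands. The ETS motif CCGGAAG, bound by GABPA, was in 37.9% of the member windows against 12.8% of the windows of protein-coding genes and 10.3% of all 35116 windows. The YY1 motif AAGATGGCG was in 14.9% against 2.41% and 1.75%, the NRF1 motif GCGCATGCG in 3.45% against 2.36% and 1.92%, and the antioxidant response element core TGACNNNGC, at which NRF2 binds, in 10.3% against 13.8% and 13.3%. Among the windows of the cytosolic ribosomal proteins (78) and the nuclear respiratory chain genes (80), the ETS motif was in 33.3% and 27.5%, the YY1 motif in 6.41% and 12.5%, the NRF1 motif in 1.28% and 13.8%, and the antioxidant response element core in 14.1% and 15%. Matches of different motifs did not overlap in any window. These are matches of letters in a fixed window, not binding sites.

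By motif, the members with an ETS match had a median log2 fold change of -0.41 in H460 (29 genes) and those without one -0.66 (39 genes). The 8 members with an antioxidant response element core had a median of -0.91 and the 60 without one -0.57, given as descriptions. Of the 13 genes that fell in H460 and had a window, 4 held an ETS match, 2 a YY1 match, 2 an antioxidant response element core and none an NRF1 match. The windows of 4 named members that held a match are shown with all matches in capitals, each 5′ to 3′ on the strand of the gene. They are MRPS2 (an antioxidant response element core, the upstream of its 2 windows), MRPS30 (a YY1 match just after the start), MRPS22 (3 ETS matches, 2 of them side by side) and MRPS27 (an antioxidant response element core at the far end).
MRPS2, chr9:135499715-135500014, plus strand: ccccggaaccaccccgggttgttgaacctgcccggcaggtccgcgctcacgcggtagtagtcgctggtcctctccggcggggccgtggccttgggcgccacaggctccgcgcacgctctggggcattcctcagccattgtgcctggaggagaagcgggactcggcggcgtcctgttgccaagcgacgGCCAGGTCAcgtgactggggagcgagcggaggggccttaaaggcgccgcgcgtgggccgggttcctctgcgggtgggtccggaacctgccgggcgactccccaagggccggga
MRPS30, chr5:44808697-44808996, plus strand: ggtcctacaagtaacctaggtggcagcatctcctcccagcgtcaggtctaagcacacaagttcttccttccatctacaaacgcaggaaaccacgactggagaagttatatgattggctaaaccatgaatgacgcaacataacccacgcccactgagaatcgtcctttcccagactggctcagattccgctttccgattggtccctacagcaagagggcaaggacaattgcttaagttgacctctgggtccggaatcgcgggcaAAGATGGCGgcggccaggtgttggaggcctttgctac
MRPS22, chr3:139343744-139344043, plus strand: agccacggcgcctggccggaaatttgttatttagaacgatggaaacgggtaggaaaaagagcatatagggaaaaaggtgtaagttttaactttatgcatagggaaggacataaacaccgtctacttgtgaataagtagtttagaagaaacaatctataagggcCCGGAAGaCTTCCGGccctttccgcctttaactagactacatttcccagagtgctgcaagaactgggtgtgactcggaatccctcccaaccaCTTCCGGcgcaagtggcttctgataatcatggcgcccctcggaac
MRPS27, chr5:72320191-72320490, minus strand: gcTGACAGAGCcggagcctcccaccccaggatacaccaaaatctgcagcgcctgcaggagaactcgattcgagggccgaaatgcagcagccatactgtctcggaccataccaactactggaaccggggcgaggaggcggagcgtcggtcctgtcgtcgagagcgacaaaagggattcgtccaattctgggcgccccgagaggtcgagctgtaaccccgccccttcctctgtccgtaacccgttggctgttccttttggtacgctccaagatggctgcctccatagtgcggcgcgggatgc

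MRPL4, MRPL9, MRPL11, MRPL12 and MRPS15, which also fell in H460, held none of the motifs in their windows. MRPL2 and MRPL15 had no window. Values of members with close copies are uncertain, since the annotation names 82 pseudogenes for 37 members, and 13 measured members overlap another protein-coding gene on the same strand. A further overlap on the opposite strand is annotated for 27 members, among them MRPS2 (with PIERCE1), MRPL9 (OAZ3), MRPS22 (COPB2 and others) and MRPS27 (PTCD2); the libraries were strand-specific, but whether the quantification used strand is not given in the sources used here. In H460, 7 of 42 members without a pseudogene fell (median log2 fold change -0.61) and 8 of 35 with one (-0.57). Likewise 7 of 39 members without an overlapping protein-coding gene on either strand fell and 8 of 38 with one.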

How the data were processed

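RNA sequencing had been performed on 12 libraries. According to the study's methods, reads had been mapped on hg19 by TopHat, and Cufflinks gave FPKM; the submitters' processing notes name STAR 2.5.3a and Cuffnorm, so which tools made the files is not settled. For each library the authors deposited FPKM values, scaled to transcript length and library size. They also deposited DESeq2 tables of their own comparisons (mean counts, log2 fold changes, p-values), which were not used. Depth in reads was not given in the files. Values below 1e-06 FPKM (12710 in all) were taken as 0.

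Identifiers were matched without version to a GENCODE annotation on GRCh37 (96.1% matched), and gene bounds may not be those of the authors' annotation. Genes with FPKM of at least 1 in at least 2 of the 4 libraries of a line were tested with limma 3.58.1 in R 4.3.3 on log2(FPKM + 1), with a variance trend and Benjamini-Hochberg adjustment over all genes. The average effect, the differences between lines and the siRNA comparison used genes passing in every line. The scripts were tested on simulated data. Figures used matplotlib 3.10.9.

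The members, gene lists, motifs and tests were chosen with earlier results of these data known. Named were the members past the threshold (the 5 with the largest change where more than 8 passed), the 3 highest and 3 lowest members, and a short list of members and regulators of known function. The libraries of a group come from 1 cell line, so p-values measure the spread between these cultures. Alternatives were another pseudocount, no filter, other scalings, no trend, a replicate block, 1 fit of all libraries and leaving out each library.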

Additional observations from a re-analysis of the deposited data

Results flagged for a closer look

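The effect of NRF2 siRNA differed between lines for MRPS2 and MRPL4 by limma's F test (adjusted p = 0.0495 for each), and these 2 of 77 members (2.60%) were near the 2.51% of all genes tested. None passed with a pseudocount of 0.1, no variance trend, the replicate block or any of the 3 other scalings, or in 10 of the 12 fits that each left out 1 library. In the pairwise tests, the effect in H460 was lower than in A549 by log2 differences of -1.20 for MRPS2 and -1.03 for MRPL4, and lower than in H2023 by -1.33 for MRPL2, -1.23 for MRPS30, -1.07 for MRPS2 and -1.0 for MRPL4. Mitochondrially encoded transcripts took 8.56% and 13.1% of the FPKM sum in H460 controls against 20.8% and 26.0% with NRF2 siRNA, and 12% and 18.1% against 17.3% and 22.8% in H2023. MYC fell in H460 by 2.93 on the log2 scale. Their part in the differences was not tested.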

How the results depend on the processing

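With 2 libraries a group, calls near the threshold are unstable, and depth in reads is unknown. The count of members lower in H460 (15) was 0 with no filter on low values, 8 with equal library sums without mitochondrially encoded transcripts, 9 with equal sums that kept them (an alternative added after the data were seen), 23 with the replicate block and 35 in 1 fit of all 12 libraries. It ranged from 0 to 28 when each library was left out, and was 0 without either control. The H460 median (-0.57) was -0.42 without mitochondrially encoded transcripts, -0.44 with median ratio scaling, and -0.61 to -0.43 over the libraries left out. The median in A549 (-0.03) was -0.14 without mitochondrially encoded transcripts and -0.13 with equal sums that kept them, where the median of all genes moved from 0.02 to -0.07 in both cases, and -0.12 to 0.028 over the libraries left out, and that in H2023 (-0.21) was -0.12 and -0.30 to -0.09. In H2023, 0 to 2 members were lower, namely MRPS27 and MRPL58 without the siRNA #28 library and MRPS15 without the siRNA #30 library. Where a library was left out of a line, the lone library of its group was assumed to vary like the other group. The average effect (20 lower) ranged from 13 to 28, the lowest without A549 control 0 or H2023 control 0, and was 0 with a median of -0.13 for A549 and H2023 only; 1 member, MRPL10, was higher with median ratio scaling. The difference between lines (2 members) gave 1 with no filter, 0 with a pseudocount of 0.1, any of the 3 other scalings, no trend or the replicate block, and 0 to 6 over the libraries left out, 6 being without the H460 siRNA #28 library. For siRNA #28 against #30, 1 fit of all 12 libraries gave 2 members lower and 7 higher, equal sums with or without mitochondrially encoded transcripts gave 2 higher, no filter, no trend and a pseudocount of 0.1 gave 0, and leaving out libraries gave 0 to 1; the MRPS27 difference was lost without either H2023 or either H460 library. The cause of these changes was not tested, beyond the fewer samples or more genes tested. The replicate numbers are not stated to mark a shared batch, and same-numbered deviations correlated at -0.03 in A549, 0.31 in H2023 and 0.16 in H460. Of 24 called values of named members, none changed sign in 385 alternatives, and 85 missed the threshold.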
